A study of Mus musculus with 2 samples.

Results

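The 10 genes described here encode the vascular endothelial growth factor (VEGF) system: the ligands Vegfa, Vegfb, Vegfc, Vegfd and Pgf, the receptor tyrosine kinases Flt1, Kdr and Flt4, and the co-receptors Nrp1 and Nrp2. They were taken by symbol from the 32285 genes listed in the deposited matrices, and all 10 were found in both libraries. The series holds single-cell RNA-seq of orthotopic KPC tumours, which grow from mouse pancreatic cancer cells implanted in the pancreas, taken at day 21. The control group was labelled Porcnfl/fl (WT) and came from littermates, and the knockout group was labelled Csf1r-Cre;Porcnfl/fl (KO). The labels thus give the floxed Porcn alleles to both groups and the Cre transgene to the knockout alone. Porcn encodes the enzyme that lipid-modifies Wnt proteins for secretion, and Csf1r-Cre acts in cells that use the Csf1r promoter, so the implanted tumour cells should carry no deletion. Tumours of 5 mice were pooled into 1 library per group, so no test between genotypes was possible, and every difference below lies between 2 libraries. Exact 95% intervals stand in parentheses and hold the error of counting UMIs but no variation among mice.

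VEGF-A drives the growth of blood vessels through KDR (VEGFR2), the main signalling receptor of endothelial cells, and is classically induced by hypoxia. FLT1 (VEGFR1) binds VEGF-A, VEGF-B and placental growth factor, the product of Pgf, with high affinity and can act as a decoy. VEGF-C and VEGF-D act on FLT4 (VEGFR3), the receptor of lymphatic endothelium, while the neuropilins bind VEGFs and class 3 semaphorins.

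The deposited counts are unique molecular identifiers (UMIs), 1 for each RNA molecule captured. After filtering, 11516 control cells with 168741010 UMIs and 10467 knockout cells with 129252602 UMIs were kept, with median depths of 12167.5 and 10109 UMIs. Cells were clustered without the 10 genes and named from marker lists, and levels are UMIs per 1000000 UMIs of a class in a library (CPM). The libraries shared 46 cell barcodes, of which 38 were kept in both and 12 of those had the same class name in both. Porcn had 8 UMIs in 510 control and 4 in 550 knockout monocyte/macrophage-like cells, too few to check the labels there. The labels call the cells tumour-infiltrating, but 64.2% of control and 41.5% of knockout cells were epithelial/tumour-like. This class held 7394 control and 4340 knockout cells in 8 clusters. Another 4 clusters (2120 and 1438 cells) scored highest for tumour markers but failed the naming rules and are given separately. Those led by 2610528A11Rik, Tnnt2 and Hmga2, by Csmd1, Tenm4 and Adgrl3, and by Csmd1, Hmga2 and Ank had no marker among their 50 leading genes. The one led by Tenm4, Muc5ac and Onecut2 had none among its 10 leading genes, and a second class scored within 0.05. Krt19 was 1102 and 1154 CPM in the 4 clusters together. Below, "tumour-like sources" means the class and these clusters together. With 1 library per group, a cluster that differs in size between genotypes may be a feature of that library.

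All 10 genes were matched to RefSeq promoter windows on GRCm38.p6. The windows of 3 members are printed because the results turn on them: Vegfa for its relation to hypoxia genes, and Kdr and Flt1 because one was nearly absent from tumour cells and the other was common in them. Each line gives the 250 bases before the RefSeq start site, 5′ to 3′ on the gene's strand. Capitals mark ACGTG or GCGTG (the core bound by hypoxia-inducible factors), CCGGAA (a core of ETS factor sites) and GGGCGG (the GC box), searched on both strands.
Vegfa promoter: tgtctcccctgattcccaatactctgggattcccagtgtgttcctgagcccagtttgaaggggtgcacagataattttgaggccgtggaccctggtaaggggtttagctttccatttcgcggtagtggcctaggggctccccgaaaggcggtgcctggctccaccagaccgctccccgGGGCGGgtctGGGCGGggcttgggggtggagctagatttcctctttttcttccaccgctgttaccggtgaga
Kdr promoter: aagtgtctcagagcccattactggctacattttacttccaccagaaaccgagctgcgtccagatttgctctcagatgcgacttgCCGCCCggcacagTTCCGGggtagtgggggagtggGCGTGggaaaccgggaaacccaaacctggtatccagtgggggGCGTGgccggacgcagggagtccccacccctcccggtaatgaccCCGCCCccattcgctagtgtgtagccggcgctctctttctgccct
Flt1 promoter: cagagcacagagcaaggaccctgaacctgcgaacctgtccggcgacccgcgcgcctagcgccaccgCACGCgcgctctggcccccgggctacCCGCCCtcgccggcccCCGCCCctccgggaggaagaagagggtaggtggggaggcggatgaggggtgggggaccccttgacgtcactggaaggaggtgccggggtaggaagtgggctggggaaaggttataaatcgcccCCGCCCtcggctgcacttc
These lie at chr17:46032378-46032627, chr5:75978456-75978705 and chr5:147726012-147726261, all on the minus strand. The Vegfa window held 2 GC boxes and neither ACGTG nor GCGTG. Kdr held 2 GCGTG, 1 CCGGAA and 2 GGGCGG matches, and Flt1 held 1 GCGTG and 3 GGGCGG matches. No printed matches overlapped one another. Over all 32851 windows of this length, 16.6% held ACGTG, 28.2% GCGTG and 32.7% GGGCGG, and 3952 windows held CCGGAA. A match describes the letters of the window and is not evidence of binding.

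**Figure D1:**
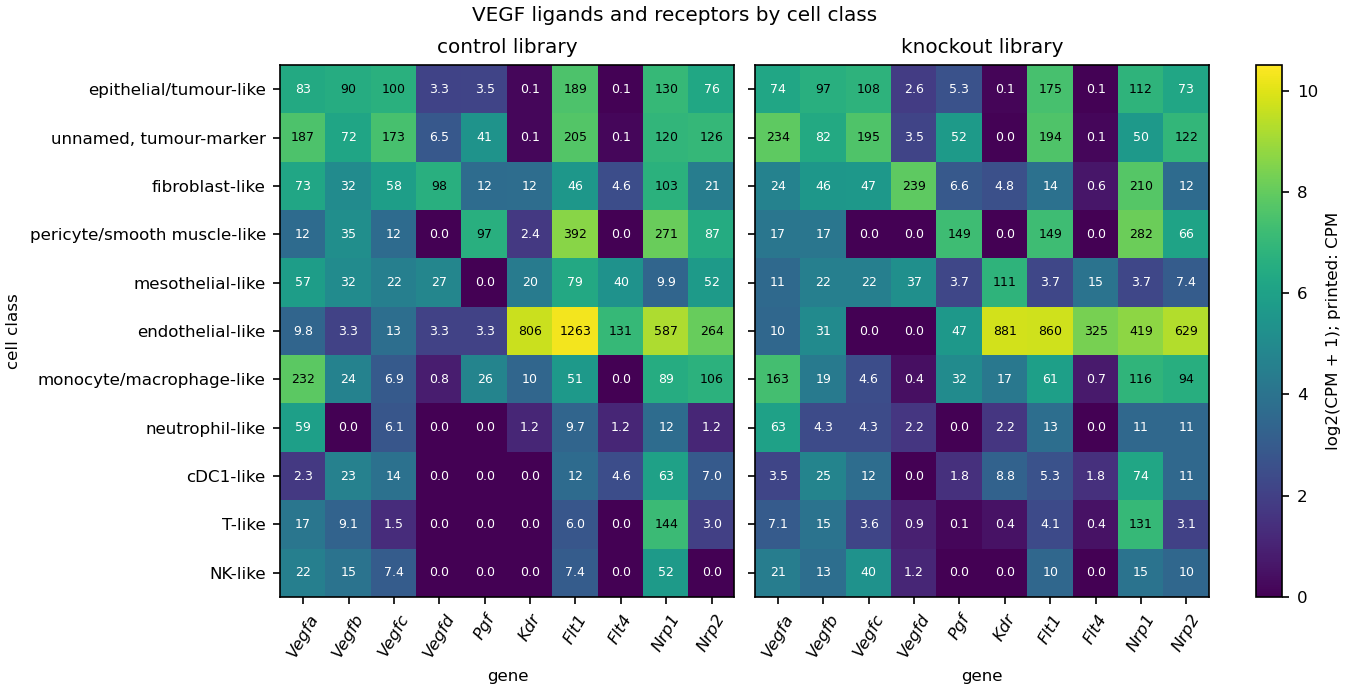
Level of each gene (columns) in each cell class (rows) of the control and the knockout library, as CPM printed in the cells and log2(CPM + 1) in colour. Kdr and Flt4 were concentrated in endothelial-like cells, Vegfd in fibroblast-like cells, and Vegfa was highest among named classes in monocyte/macrophage-like cells in both libraries.

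Among the named classes, Vegfa was highest in monocyte/macrophage-like cells, at 232 CPM (213 to 252) in the control and 163 CPM (149 to 179) in the knockout library. Epithelial/tumour-like cells followed at 82.7 CPM (81.1 to 84.4) and 73.8 CPM (71.9 to 75.8). The macrophage level lay above the tumour level beyond counting error in both libraries. Fibroblast-like cells held 72.7 and 23.9 CPM, neutrophil-like cells 59.4 and 62.8 CPM, and endothelial-like cells only 3 and 2 UMIs. The fibroblast-like and neutrophil-like levels of the control did not differ beyond counting error, nor did the tumour-like and neutrophil-like levels of the knockout library. The unnamed tumour-marker clusters held 187 and 234 CPM.

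Tumour-like sources nevertheless held 91.6% of all control Vegfa UMIs (91.2 to 92.0) and 90.8% of all knockout Vegfa UMIs (90.3 to 91.4). Monocyte/macrophage-like cells held 3.27% and 3.81%, and fibroblast-like cells 4.19% and 1.44%. The high level in macrophage-like cells thus came with a small share of the transcript. These cells were fewer and shallower, and their median depth was 2879 and 4016 UMIs, against 13565 and 15216 UMIs in epithelial/tumour-like cells. Of all 168741010 kept control UMIs, the epithelial/tumour-like class held 119068663 and the unnamed tumour-marker clusters 32461908. In the knockout library they held 76494334 and 22529459 of 129252602. A gene at the same level in every cell would thus also have most of its UMIs there. Shares of tumour-like sources given below for other genes stand against the same totals.

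**Figure D2:**
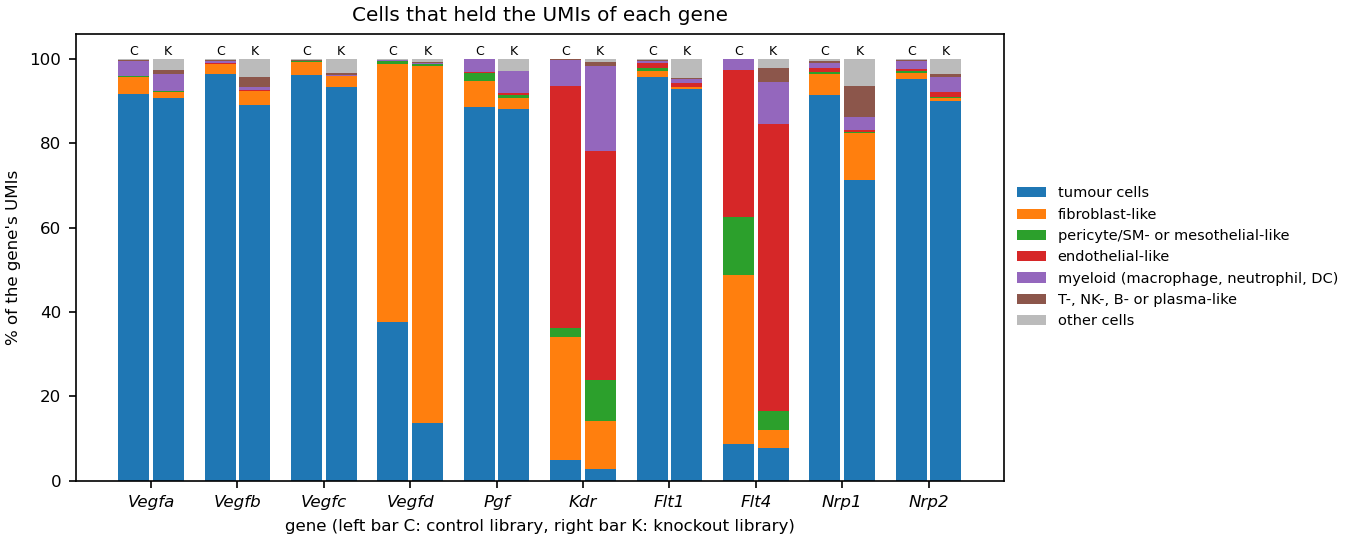
Share of each gene's UMIs (vertical axis, %) held by groups of cells, with the control library in the left bar and the knockout library in the right bar of each gene. Tumour-like sources held most UMIs of 7 genes, fibroblast-like cells most of Vegfd, and endothelial-like cells most of Kdr in both libraries and of Flt4 in the knockout library. Tumour-like sources also held most UMIs of all genes together in both libraries.

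Of the members with at least 20 UMIs over both libraries, 0 of 9 were past 2-fold between genotypes in epithelial/tumour-like cells, where 7.29% of all 16843 genes with that many UMIs were (5.21% higher and 2.08% lower). In monocyte/macrophage-like cells it was 0 of 8, against 6.39% of genes (2.77% higher and 3.62% lower). Vegfa in epithelial/tumour-like cells gave a knockout/control ratio of 0.892 (0.863 to 0.922). In monocyte/macrophage-like cells the ratio was 0.704 (0.621 to 0.797), from 568 and 458 UMIs.

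The ratio in tumour cells depended on which clusters were pooled. Within single clusters Vegfa was lower in the knockout library in 10 of the 12 tumour-marker clusters, with the counting interval below 1 in 9 and above 1 in 0, and the median ratio was 0.805 (range 0.621 to 1.16). The cluster with the highest level, led by 2610528A11Rik, Tnnt2 and Hmga2, held 358 CPM in the control and 286 CPM in the knockout library. It was 1 of 4 with more cells in the knockout library, with 598 control and 804 knockout cells. When the unnamed clusters were added to the class, the log2 ratio was 0.07 instead of -0.16, and it was also just above 0 under 3 other choices of filter or clustering. Vegfa was thus lower within most clusters, but not when all were pooled. Clusters share a library and are not replicates.

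Vegfa also differed between macrophage-like clusters. The cluster led by Arg1, Ms4a4c and Ms4a6d held 379 CPM Vegfa in the control and 216 CPM in the knockout library, and the one led by C1qa, C1qb and C1qc held 85.5 and 38.5 CPM. Arg1, encoding arginase 1, marks macrophages that deplete arginine, and the C1q genes mark mature tissue macrophages. In the cluster led by Arg1, Mmp12 and Chil3 the values were 212 and 228 CPM, and its ratio of 1.07 (0.890 to 1.29) did not differ from 1 beyond counting error. Thinned to 1000 UMIs per cell, 23.6% of control and 12.2% of knockout macrophage-like cells had a Vegfa UMI (46.3% and 31.8% unthinned; 14 and 11 cells were shallower). The thinned share in T-like cells, given as a rough background from free RNA, was 2.22% and 0.568%, at median depths of 2823 and 3342 UMIs. Summed CPM of the 10 epithelial/tumour markers in macrophage-like cells was 495 in the control (7 markers with a UMI) and 229 in the knockout library (9 with a UMI), Cldn3 was at 0 in both, and the part of such RNA in the Vegfa difference was not tested. The same sum was lower in T-like cells, at 245 and 171 CPM, so their share is not a matched background.

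In fibroblast-like cells (653 control and 738 knockout cells), 2 of 10 members were at least 2-fold higher and 4 at least 2-fold lower in the knockout library, where 8.11% and 7.07% of 13489 genes were (15.2% either way). Vegfa had 728 control and 173 knockout UMIs, a ratio of 0.329 (0.277 to 0.389). One cluster of 32 control cells and 3 knockout cells held 383 of the 728 control UMIs, at 455 CPM, and 1 control cell alone held 87. Without that cluster the log2 ratio was -0.70 instead of -1.60. With the 8 clusters that had at least 10 cells in each library weighted alike, the levels were 35.7 and 28.2 CPM, a log2 ratio of -0.34. These 8 clusters held 387 of the 653 control and 697 of the 738 knockout cells. Every fibroblast-like value given with clusters weighted alike leaves out the other cells of the class. Of 6 clusters with at least 20 cells in each library, 0 had a Vegfa interval apart from 1. The difference was thus smaller when only clusters filled in both libraries were compared, and the clusters were unequally filled in the 2 libraries.

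**Figure D3:**
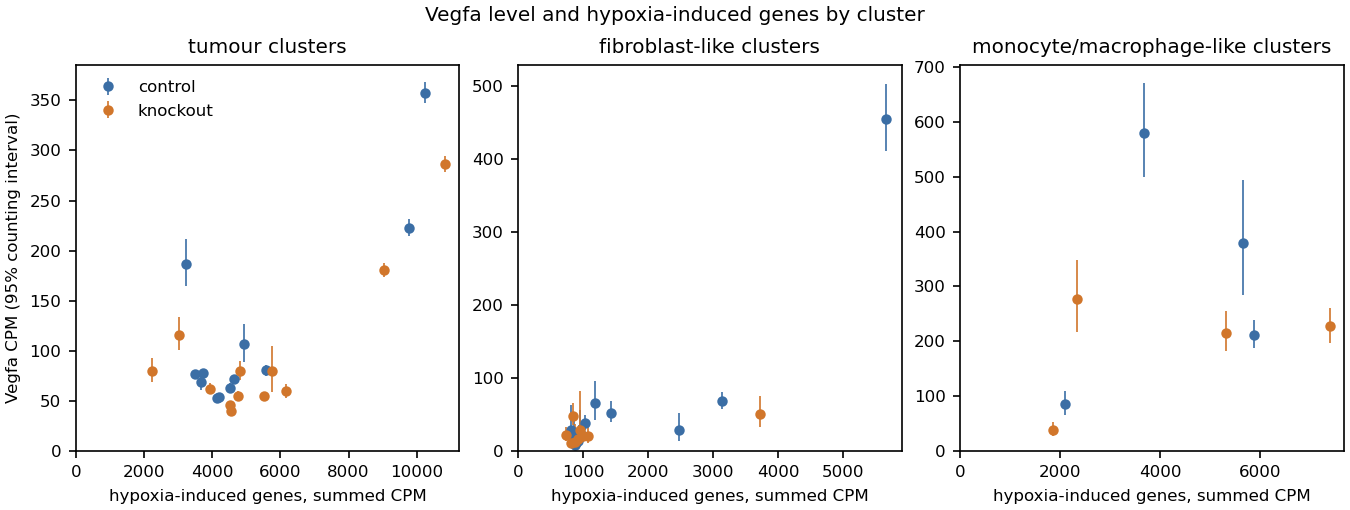
Vegfa level (vertical axis, CPM with 95% counting interval) against the summed CPM of 13 hypoxia-induced genes (horizontal axis) for clusters with at least 10 cells; blue points are control and orange points knockout clusters. The tumour and the fibroblast-like cluster with the highest control hypoxia sums, 10258 and 5647 CPM, also had the highest control Vegfa levels, 358 and 455 CPM.

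Vegfa varied with a list of 13 hypoxia-induced genes that included Slc2a1, Pgk1, Ldha, Car9 and Bnip3 and did not contain Vegfa. Across the 12 tumour-marker clusters, Pearson's r between the 2 levels was 0.69 in the control and 0.52 in the knockout library. Across fibroblast-like clusters it was 0.91 over 10 control clusters and 0.60 over 8 knockout clusters. These are descriptions, since clusters share a library and its depth, and the plot shows that a few clusters with high sums carry them. The relation was not particular to Vegfa. In tumour clusters Pgf had r of 0.69 in the control and 0.64 in the knockout library. Flt1 had 0.28 and 0.53, Nrp2 0.14 and 0.55, and Vegfc 0.15 and 0.41. Nrp1 ran the other way in tumour clusters, with r of -0.70 and -0.41.

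Vegfb, a ligand of FLT1 with weak angiogenic activity, had its top level in epithelial/tumour-like cells, at 90.3 CPM (88.6 to 92.0) and 96.6 CPM (94.4 to 98.8). Acinar-like cells (77.8 and 92.0 CPM) did not differ from this beyond counting error, and they carried the tumour marker Krt19 at 1771 and 2418 CPM, whose part was not tested. Tumour-like sources held 96.3% of its UMIs in the control and 89.2% in the knockout library. Fibroblast-like cells held 32.4 and 46.5 CPM, a ratio of 1.44 (1.23 to 1.68). Over the 12 tumour-marker clusters the ratios lay between 0.770 and 1.19, with the interval above 1 in 6 and below 1 in 1.

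Vegfc, the main lymphangiogenic ligand, was held almost wholly by tumour-like sources as well, with 96.2% and 93.4% of its UMIs. Its level was 100 CPM (98.6 to 102) and 108 CPM (106 to 110) in epithelial/tumour-like cells and 58.0 and 47.5 CPM in fibroblast-like cells. The unnamed cluster led by Csmd1, Tenm4 and Adgrl3 was the highest tumour cluster at 298 and 321 CPM, and the one led by Lgals4, Rbp2 and Spink4 the lowest at 16.8 and 20.7 CPM. The spread between tumour clusters was larger than the class ratio of 1.08 (1.05 to 1.11). Endothelial-like cells had 4 and 0 Vegfc UMIs, and 0 allows up to 15.7 CPM.

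Vegfd, the other lymphangiogenic ligand, was the only ligand that came mainly from fibroblast-like cells, which held 61.3% of its UMIs in the control and 84.6% in the knockout library. Its level there was 97.8 CPM (91.8 to 104) and 239 CPM (227 to 250), a ratio of 2.44 (2.26 to 2.64). The mesothelial-like class came next at 27.2 and 37.0 CPM, and every other named class was below 5 CPM. Of 6 fibroblast-like clusters with at least 20 cells in each library, 4 had a Vegfd interval above 1 and 1 below. The cluster led by Dcn, Serping1 and Col3a1 held 126 and 262 CPM, and the one led by Fbn1, Mfap5 and Dcn 398 and 306 CPM. With clusters weighted alike the levels were 171 and 217 CPM, a log2 ratio of 0.34 instead of 1.29. The difference in Vegfd was thus also smaller when only clusters filled in both libraries were compared, but kept its direction.

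Pgf, the placental growth factor gene, came mainly from the unnamed tumour-marker clusters. These held 67.8% of its UMIs in the control and 65.4% in the knockout library. Of those UMIs, 80.2% in the control and 95.3% in the knockout library lay in the cluster led by 2610528A11Rik, Tnnt2 and Hmga2, at 89.1 and 67.4 CPM. Outside tumour-like sources Pgf was highest in pericyte/smooth muscle-like cells, at 96.8 CPM (69.5 to 131) from 52 control cells and 149 CPM (68.3 to 283) from 9 knockout cells. Monocyte/macrophage-like cells held 25.7 and 32.4 CPM, a ratio of 1.26 (0.904 to 1.77) that did not differ from 1 beyond counting error. In epithelial/tumour-like cells Pgf was low, at 3.45 and 5.32 CPM, with a ratio of 1.54 (1.34 to 1.77). In fibroblast-like cells 62 of the 122 control UMIs came from 1 cell, and the log2 ratio of -0.86 was 0.12 with clusters weighted alike. Endothelial-like cells had 1 control and 9 knockout UMIs, all in cells with lymphatic markers.

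**Figure D4:**
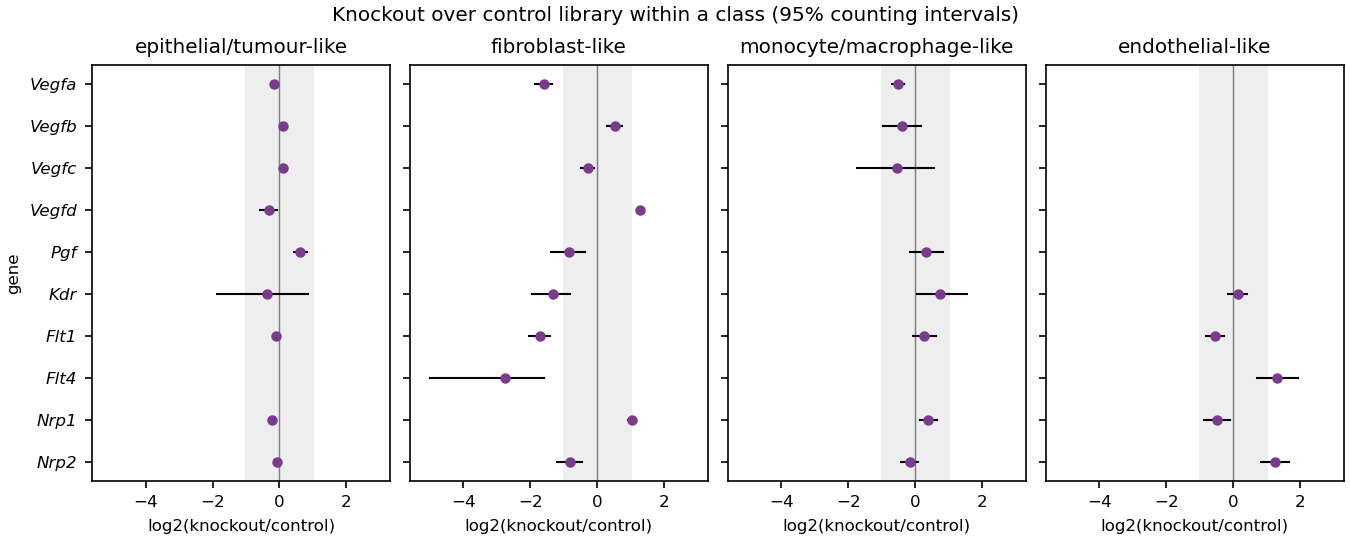
Log2 of the knockout over the control level (horizontal axis) for each gene with at least 20 UMIs in 4 classes; points are the ratios, lines the 95% counting intervals, and the grey band spans 2-fold either way. All 9 points of epithelial/tumour-like cells and all 8 of monocyte/macrophage-like cells lie in the band, while 6 of 10 in fibroblast-like cells and 2 of 5 in endothelial-like cells lie outside.

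Kdr marked endothelial-like cells, which were few: 44 control and 22 knockout cells. The class name rests on markers such as Pecam1, at 1729 and 1153 CPM, and Cdh5, at 1064 and 729 CPM. It reached 806 CPM (708 to 913) and 881 CPM (753 to 1025) there, a ratio of 1.09 (0.893 to 1.34), which did not differ from 1 beyond counting error. These cells held 57.6% and 54.4% of all Kdr UMIs. In 7394 control and 4340 knockout epithelial/tumour-like cells Kdr had 17 and 8 UMIs, so its level was 0.143 and 0.105 CPM. Mesothelial-like cells, which line the abdominal organs, held 19.8 CPM in 31 control cells and 111 CPM in 27 knockout cells. In fibroblast-like cells Kdr was 12.5 and 4.84 CPM, and 72 of its 125 control UMIs lay in 1 cluster that also held Krt19, a keratin of ductal and tumour cells, at 945 CPM. The part of other cells' RNA in that cluster was not tested. Without that cluster the log2 ratio was -0.35 instead of -1.34, and with clusters weighted alike it was 0.064. In monocyte/macrophage-like cells Kdr was 10.2 and 17.5 CPM, a ratio of 1.71 (1.04 to 2.89). The cluster led by Arg1, Ms4a4c and Ms4a6d held 12 of 25 control and 35 of 49 knockout UMIs, in 36 and 151 cells, and its own level was 84.2 and 53.6 CPM. With the macrophage clusters weighted alike the log2 ratio of Kdr was -0.33 instead of 0.75.

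Flt1 was also highest in endothelial-like cells, at 1263 CPM (1139.9 to 1395) and 859.8 CPM (733 to 1002), but most of its UMIs lay elsewhere. Epithelial/tumour-like cells held 189 CPM (186 to 191) and 175 CPM (172 to 178), and tumour-like sources held 95.7% of Flt1 UMIs in the control and 92.8% in the knockout library. An Flt1 UMI was found in 5458 of 7394 control and 3290 of 4340 knockout cells of the class. After thinning to 1000 UMIs this was 17.3% and 16.1% of cells, against 1.11% and 0.379% of T-like cells. Kdr was found in only 14 control and 8 knockout cells of the class, and 10 and 5 of these also had Flt1. Nrp1 was found in 4909 control and 2645 knockout cells, and Flt1 and Nrp1 were found together in 51.3% and 49.3% of the class. Such joint counts are limited by how often each gene was found alone. The class ratio was 0.929 (0.909 to 0.949), with the interval below 1 in 8 of 12 tumour-marker clusters and above 1 in 2.

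In the control, pericyte/smooth muscle-like cells were next for Flt1, at 392 CPM (334 to 456) from 166 control UMIs against 149 CPM (68.3 to 283) from 9 knockout UMIs. In the knockout library acinar-like cells, at 176 CPM, and epithelial/tumour-like cells had values above that. In fibroblast-like cells it was 46.2 and 14.0 CPM, a ratio of 0.302 (0.241 to 0.375). With clusters weighted alike the levels were 38.0 and 24.5 CPM, a log2 ratio of -0.63 instead of -1.72, which is not past 2-fold. It was also not past 2-fold with doublets kept, at -0.82. The Krt19-carrying cluster held 63.7% of those control UMIs in 11.3% of the cells, and 46.5% of the knockout UMIs in 3.39%. Summed CPM of the 10 epithelial/tumour markers in the fibroblast-like class was 901 and 289, and its part in the Flt1 difference was not tested.

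Flt4, the receptor for VEGF-C and VEGF-D, had only 115 UMIs in all kept control cells and 91 in all kept knockout cells. Endothelial-like cells held 40 and 62 of them, or 131 CPM (93.2 to 178) and 325 CPM (249 to 417), a ratio of 2.49 (1.65 to 3.80). Nrp2, the neuropilin known for lymphatic vessels, was in this class at 264 CPM (210 to 329) and 629 CPM (522 to 752), a ratio of 2.38 (1.78 to 3.196). These were the 2 of 5 members at least 2-fold higher in endothelial-like cells, where 7.14% of 4593 genes were (5.83% lower and 13% either way). In the fibroblast-like class Flt4 had 46 control and 4 knockout UMIs, a log2 ratio of -2.76, which was -0.70 with clusters weighted alike.

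**Figure D5:**
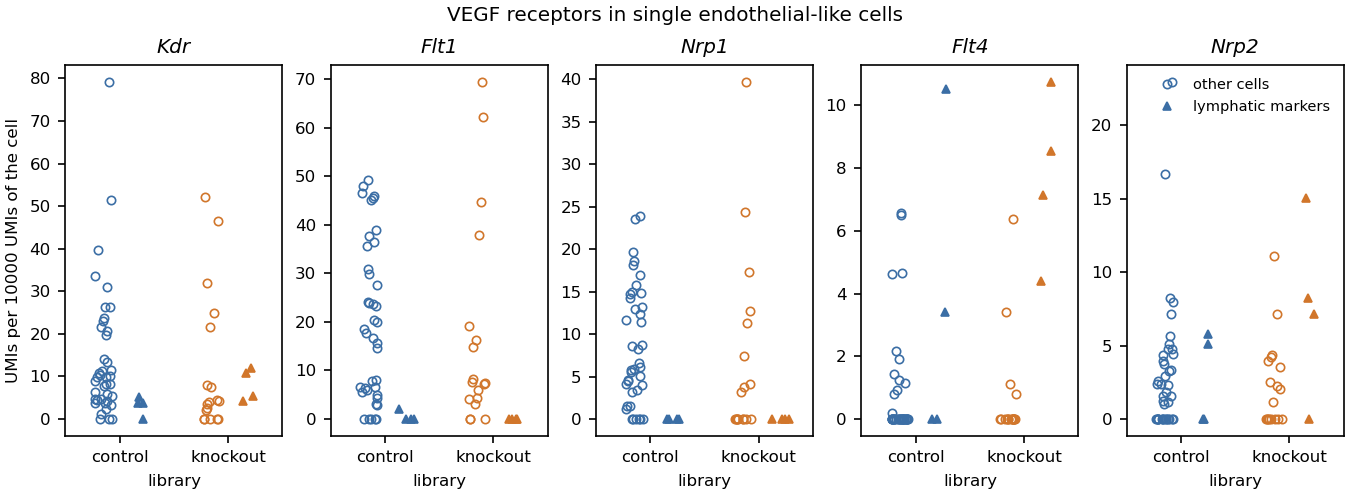
Receptor UMIs per 10000 UMIs of each endothelial-like cell (vertical axis) in the control and knockout library; filled triangles are cells with UMIs of at least 2 lymphatic markers and open circles the other cells. Each library has 4 triangles, which lie at or near 0 for Flt1 and Nrp1 and hold most of the Flt4 UMIs.

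The endothelial-like cells were of more than 1 kind. In each library 4 cells had UMIs of at least 2 of the lymphatic markers Prox1, Lyve1, Mmrn1, Ccl21a and Reln, and these cells held all 573 control and 1678 knockout UMIs of those markers. They carried Flt4 at 677 and 613 CPM and Nrp2 at 431 and 1063 CPM. These levels, and with them the ratios of the class, rest on very few cells. In the control 1 cell held 20 Flt4 and 11 Nrp2 UMIs, and the other 3 held 2 and 3. In the knockout library 1 cell held 29 Flt4 and 51 Nrp2 UMIs and another 23 and 43, while the other 2 held 4 and 3. Nrp1 was at 0 UMIs in them in both libraries, and Flt1 had 1 and 0 UMIs. Kdr was present at 338 and 526 CPM. The split was made after the values were seen.

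The other 40 control and 18 knockout cells showed the receptor set of blood vessels. Kdr was 861 and 1207 CPM, Flt1 1409 and 1649 CPM, and Nrp1 657 and 804 CPM. Flt4 was 65.7 and 60.3 CPM and Nrp2 245 and 231 CPM in them. The higher Flt4 and Nrp2 of the knockout class were thus not seen outside the cells with lymphatic markers, which gave 32514 of 306510 control UMIs and 91286 of 190736 knockout UMIs. Without them the log2 ratio of Flt1 was 0.23 instead of -0.55, and that of Nrp1 0.30 instead of -0.48. Here too few cells carried the values. In the knockout library 1 cell without lymphatic markers held 41 of the 120 Kdr, 55 of the 164 Flt1 and 35 of the 80 Nrp1 UMIs. An Nrp1 UMI was found in 34 of the 40 control but only 9 of the 18 knockout cells without these markers. Kdr and Nrp1 were found together in 32 of 44 control and 9 of 22 knockout endothelial-like cells, none of them with lymphatic markers. The markers of pericytes were mostly at 0 in the class (3 of 9 had a UMI in the control and 2 of 9 in the knockout library).

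Nrp1 was found in endothelial, stromal, tumour and immune cells. It was highest in endothelial-like cells, at 587 CPM (505 to 680) and 419 CPM (333 to 522), followed in the control by pericyte/smooth muscle-like cells at 271 CPM (224 to 326). T-like cells held 144 CPM (116 to 175) and 131 CPM (123 to 140), a level that did not differ from the epithelial/tumour-like 130 CPM in the control beyond counting error. T-like cells were 189 in the control and 1618 in the knockout library, so they held 888 knockout Nrp1 UMIs against 95. No other member exceeded 20 CPM in T-like cells. Neuropilin 1 is known on regulatory and activated T cells, and here the level was not confined to cells with Foxp3, the regulatory T cell factor. Among knockout T-like cells it was 91.7 CPM (74.4 to 112) in 211 cells with a Foxp3 UMI. In 724 cells with Cd8a or Cd8b1 and no Foxp3 it was 131 CPM (120 to 144), and in 314 with Cd4 alone it was 169 CPM (147 to 194). A missing Foxp3, Cd4 or Cd8a UMI does not show that a cell lacks the transcript.

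Nrp1 separated the 12 tumour-marker clusters. The cluster led by 9030622O22Rik, Onecut2 and Samd5 held 245 and 259 CPM, and the cluster with the highest Vegfa 18.3 and 8.59 CPM. The class ratio was 0.860 (0.838 to 0.883), and the interval was below 1 in 5 of 12 clusters and above 1 in 1. In the unnamed tumour-marker clusters together Nrp1 was 120 and 50.1 CPM, and the cluster that held 83.3% of those control UMIs had 1168 control and 258 knockout cells. In fibroblast-like cells Nrp1 was 103 CPM (96.9 to 110) and 210.4 CPM (200 to 221), a ratio of 2.04 (1.89 to 2.21). With clusters weighted alike it was 184 and 193 CPM, and of 6 clusters 2 had intervals above 1 and 2 below. In monocyte/macrophage-like cells it was 88.6 and 116 CPM, with most of the UMIs (65.4% and 77.5%) in the C1q cluster at 196 and 256 CPM, a ratio of 1.31 (1.06 to 1.62). Under a stricter cell filter the class log2 ratio was -0.09 instead of 0.38.

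Among the named classes with at least 20 cells, Nrp2 after endothelial-like cells was highest in monocyte/macrophage-like cells, at 106 CPM (93.2 to 119) and 94.0 CPM (83.0 to 106). This did not differ beyond counting error from the next class. That was pericyte/smooth muscle-like cells in the control (87.3 CPM) and migratory DC-like cells in the knockout library (81.4 CPM, 34 UMIs). All 4 macrophage clusters held between 81.1 and 127 CPM. The unnamed tumour-marker clusters held more than the macrophage-like class, 126 CPM (122 to 130.0) and 122 CPM (117 to 126). Epithelial/tumour-like cells held 76.1 and 72.7 CPM, a ratio of 0.955 (0.923 to 0.987). Vegfc and Nrp2 were found together in 2528 of 7394 control and 1659 of 4340 knockout epithelial/tumour-like cells. A gene on the opposite strand, Gm29083, overlaps Nrp2 but had 49 UMIs over both libraries.

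The genes whose level over 22 class-by-library profiles of 11 classes was most like a member's differed between members. For Vegfa they were Cstb (r 0.86), Inhba (0.85) and Hilpda (0.84), the last a lipid-droplet gene known to respond to hypoxia. Vegfd was closest to C1qtnf7, 5033428I22Rik and Bmper (all 0.99), Kdr to Cracr2b, Gmpr and Reep1 (all 0.96), and Flt4 to Slc38a4 (0.98), Adgrf5 (0.97) and Reep1 (0.96). Flt1 was closest to Hoxd8 (0.95), Hoxd3 and Cav2 (both 0.94), and Nrp2 to 4930556M19Rik (0.94), Flt1 (0.93) and Plcb1 (0.91). Vegfb was closest to Znrd2 (0.93), Vegfc to Sema3e (0.90), Pgf to Itga9 (0.86) and Nrp1 to Pparg (0.88). The profiles share libraries and depth, so these values describe the pattern only.

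The other genes of the pathway in epithelial/tumour-like cells stand against a share over all genes of 5.21% at least 2-fold higher and 2.08% lower. Of 11 neuropilin and semaphorin partners with enough UMIs in epithelial/tumour-like cells, 0 were past 2-fold, but the median log2 ratio was -0.46 against -0.03 over all genes. Sema3c, a guidance ligand of neuropilins, was 179 and 122 CPM, and Sema3a 6.55 and 3.67 CPM. Of 13 hypoxia-induced genes, 1 was at least 2-fold higher (Adm, 18 and 26 UMIs) and 0 lower, with a median of 0.23. Of 7 hypoxia regulators, which include the oxygen-sensing prolyl hydroxylases, and of 4 angiopoietin genes, 0 were past 2-fold. Of 7 angiogenesis inhibitors 2 were at least 2-fold lower: Adamts1, a metalloproteinase, at 26.9 and 10.2 CPM, and Serpinf1, encoding PEDF, at 3.69 and 1.23 CPM. Of 14 genes of VEGF receptor signalling and endothelial response, Sh2d2a was higher (6 and 27 UMIs) and the Notch ligand Dll4 lower (33 and 6 UMIs).

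In fibroblast-like cells the share over all genes was itself larger, 8.11% higher and 7.07% lower, and the counts of the lists stand against it. Of 13 hypoxia-induced genes 7 were at least 2-fold lower and 1 higher in the knockout library, with a median log2 ratio of -1.20 against 0.09 over all genes. Car9, a carbonic anhydrase of hypoxic cells, was 30.8 and 5.40 CPM, Ddit4 24.9 and 6.64 CPM and Ankrd37 18.5 and 4.98 CPM, while Adm, encoding adrenomedullin, was 53.8 and 116 CPM. The prolyl hydroxylase gene Egln3, itself known to be induced by hypoxia, had 325 and 47 UMIs, a log2 ratio of -2.29. These genes were low in the same direction as Vegfa, and the cluster of 32 control and 3 knockout cells had the highest control sum of hypoxia-induced genes. Of 4 angiopoietin genes 2 were at least 2-fold higher: Angpt1, an agonist of the TIE2 receptor, at 33.7 and 87.7 CPM, and Tek, encoding TIE2, at 16.4 and 36.2 CPM. Of 10 receptor signalling and endothelial genes 6 were lower, among them Cdh5 (56 and 8 UMIs), Aplnr (28 and 1 UMIs) and Apln (81 and 24 UMIs). Cdh5 and Pecam1 mark endothelial cells, and Pecam1 was 11.5 and 2.77 CPM in this class. These 2 markers were thus lower in the knockout library, as were Kdr, Flt1 and Flt4, while Tek was higher. The part of endothelial RNA in these values was not tested. Of 12 semaphorin partners 2 were lower, Sema3a (33.7 and 4.70 CPM) and Sema3f (9.19 and 3.46 CPM). Of 8 hypoxia regulators 1 was lower, Egln3, and of 8 angiogenesis inhibitors 1, Cxcl10, at 53.6 and 11.6 CPM.

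In monocyte/macrophage-like cells, where 2.77% of all genes were higher and 3.62% lower, 0 of 13 hypoxia-induced genes and 0 of 6 hypoxia regulators were past 2-fold, with medians of -0.07 and -0.03 against -0.02 over all genes. Egln3 was 170 and 89.8 CPM and Ndrg1 212 and 147 CPM, both lower by less than 2-fold, as was Vegfa. Of 3 angiogenesis inhibitors, Cxcl10, an interferon-induced chemokine that restrains vessel growth, was 162 and 547 CPM, Col18a1 12.2 and 1.78 CPM, and Thbs1, encoding thrombospondin 1, 202 and 119 CPM. Of 6 semaphorin partners Plxna4 was higher (17 and 42 UMIs) and Plxna2 and Sema3e were lower (25 and 8, and 29 and 12 UMIs).

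In neutrophil-like cells (293 and 185 cells) Vegfa was the only member with 20 UMIs, 49 and 29, and was not past 2-fold, where 14.7% of 5785 genes were (7.42% higher and 7.29% lower). In T-like cells 1 of 6 members was at least 2-fold lower, Vegfa with 11 control and 48 knockout UMIs (16.6 and 7.10 CPM), where 5.83% of 11257 genes were lower, 4.37% higher and 10.2% either. Krt19 was 71.0 and 51.0 CPM in the same cells and 2262 and 2291 CPM in epithelial/tumour-like cells, and the part of free tumour RNA in the T-like Vegfa level was not tested. Of the hypoxia-induced genes, 2 of 11 were higher in neutrophil-like cells, Ddit4 (13 and 31 UMIs) and Pdk1 (7 and 16 UMIs), and 1 of 12 was lower in T-like cells, Ndrg1 (35 and 182 UMIs, 52.9 and 26.9 CPM). Over all kept cells 0 of 10 members were past 2-fold, where 14.4% of 19425 genes were (11.7% higher and 2.69% lower), and Vegfd was furthest from 1, at 9.46 and 15.8 CPM.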

How the data were processed

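Droplet libraries (10x Genomics Chromium 3′ v3.1, per the labels' protocols) were made from 5 pooled tumours per genotype. The authors deposited raw counts (UMIs) per gene and cell; the file headers name Cell Ranger 8.0.0, while the submitters' processing notes name Cell Ranger 3.1.3 and mm10, and this difference was not resolved. Barcodes numbered 13766 in the control and 12251 in the knockout library, with 173934025 and 137527647 UMIs. The filter asked for 500 or more genes per cell and for mitochondrial UMIs of 15% or less, and Scrublet (expected rate 0.08) removed 148 and 341 doublets.

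Counts were scaled to 10000 per cell and log-transformed. Cells were clustered on 2000 variable genes that excluded the 10 members (30 principal components, 15 neighbours, Leiden resolution 1, seed 0). Leukocytes and stromal cells were clustered again, the stromal step and the scoring of markers being set after the clusters were seen. Classes are called "-like" from at least 3 detected markers. Levels are UMIs per 1000000 UMIs of the class. Intervals are exact (Poisson for levels, conditional binomial for ratios, Clopper-Pearson for shares) at 95%, and a count of 0 allows up to 3 UMIs. A gene was called past 2-fold at a log2 ratio of at least 1 either way, with 1 UMI added to each library's count, if it had at least 20 UMIs over both libraries. UMIs of 3′ tags do not scale with gene length, so levels are compared within a gene only.

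All 10 genes are named, with up to 3 genes furthest above and 3 furthest below 0 of each pathway list and class, and the 3 genes with the most similar pattern (Pearson's r of log2(CPM + 10)). Other genes named were chosen after their values were seen. The members and lists were chosen with earlier results of these data known. Alternatives changed the cell filter, doublets, resolution, naming, scaling, low-count filter, pseudocount and thinning, and 4 others were added after seeing the data. Ratios were tested on simulated Poisson counts with known answers. These counts held no variation between cells, clusters or mice, so they cannot show how the intervals fare with such variation. Promoter windows were from RefSeq (GRCm38.p6). Tools were Python 3.11.15, numpy 2.4.6, scipy 1.17.1, pandas 2.3.3, scanpy 1.11.5, anndata 0.12.19, scikit-learn 1.9.0, igraph 0.11.9, leidenalg 0.10.2 and matplotlib 3.10.9.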

Additional observations from a re-analysis of the deposited data

Results flagged for a closer look

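For 5 genes the knockout/control difference lay in opposite directions in different cell classes, with each counting interval apart from 1. These differences between classes were not tested, because each genotype has 1 library. Vegfc had a log2 ratio of 0.11 in epithelial/tumour-like and -0.29 in fibroblast-like cells, which were 0.0022 and -0.16 with clusters weighted alike. Vegfd was at 1.29 in the fibroblast-like class, against -0.31 in the tumour class. Pgf was at 0.62 in epithelial/tumour-like and -0.86 in fibroblast-like cells, but the second was 0.12 with clusters weighted alike and 0.72 without the cluster of 32 control and 3 knockout cells, and 62 of its 122 control UMIs came from 1 cell. Kdr was at 0.75 in monocyte/macrophage-like and -1.34 in fibroblast-like cells, and both signs turned with clusters weighted alike, to -0.33 and 0.064. Nrp1 was at 1.03 in the fibroblast-like class, 0.38 among macrophage-like cells and -0.22 in the tumour class. With clusters weighted alike these were 0.069, 0.31 and -0.044.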

How the results depend on the processing

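No paired analysis was possible because each genotype has 1 pooled library, and for the same reason no replicate could be left out. Of 412 alternative log2 ratios for 39 results, 332 stayed within the counting interval of the reported value, 62 lay outside it with the same sign and 18 had the other sign. The cause of each change was not tested.

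In epithelial/tumour-like cells Vegfa (-0.16 as reported) was -0.36 with a strict and 0.056 with a loose cell filter, -0.31 with doublets kept, 0.036 and 0.059 at Leiden resolutions 0.5 and 2, -0.10 when each cell was named from its own markers, 0.068 with unnamed tumour-marker clusters added and -0.30 with clusters weighted alike. Flt1 (-0.11) was -0.064 when scaled by the median ratio and -0.075 with single-cell naming. Nrp2 (-0.07) was 0.017 at resolution 0.5. With single-cell naming 1 member was at least 2-fold lower instead of 0.

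In fibroblast-like cells Vegfa (-1.60) was -1.04 with doublets kept, -1.12 as a mean over cells, -0.34 with clusters weighted alike and -0.70 without the cluster of highest Vegfa. Vegfd (1.29) was 0.83 as a mean over cells and 0.34 with clusters weighted alike. Pgf (-0.86) was 0.12 with clusters weighted alike and 0.72 without that cluster, and Kdr (-1.34) was 0.064 with clusters weighted alike. Nrp1 (1.03) was 0.91 with doublets kept, 0.71 as a mean over cells and 0.069 with clusters weighted alike. The count at least 2-fold higher (2) was 1 with doublets kept, 1 with median scaling, 1 without that cluster, 0 as a mean over cells and 0 with clusters weighted alike. The count lower (4) was 0 with clusters weighted alike.

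In monocyte/macrophage-like cells Vegfa (-0.51) was -0.28 with the strict filter and -1.06 as a mean over cells, Kdr (0.75) -0.33 with clusters weighted alike and Nrp1 (0.38) -0.086 with the strict filter. The count higher (0) was 1 with the strict filter and 1 at resolution 2, and the count lower (0) was 1 at resolution 2 and 2 as a mean over cells. In neutrophil-like cells the count higher (0) was 1 with single-cell naming, and the count lower (0) was 2 with the strict filter and 1 with doublets kept. In T-like cells the count lower (1) was 0 with the strict and 3 with the loose filter, 2 as a mean over cells and 2 with single-cell naming.

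In endothelial-like cells resolution 2, single-cell naming and leaving out cells with lymphatic markers gave, in that order, 0.38, 0.49 and 0.23 for Flt1 (-0.55), 0.13, 0.44 and 0.022 for Flt4 (1.30), 0.71, 0.66 and 0.30 for Nrp1 (-0.48), and -1.28, 0.13 and -0.040 for Nrp2 (1.25), which was 0.081 as a mean over cells. The count higher (2) was 0 under each of these 4, and the count lower (0) was 1 at resolution 2. With a pseudocount of 1, the closest gene in pattern stayed the same for Vegfa, Pgf and Nrp1 and changed for the other members. Depth limits Kdr and Flt4 outside endothelial-like cells, where most classes held under 20 UMIs.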

Other observations

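Mesothelial-like cells, the lining of the abdominal cavity, had member levels that differed between libraries, from 31 control and 27 knockout cells. Kdr had 8 and 30 UMIs, a ratio of 5.62 (2.52 to 14.2). Flt1 had 32 and 1 UMIs, Nrp2 21 and 2, Vegfa 23 and 3, and Flt4 16 and 4. Krt19 was 1359 and 604 CPM in the same cells, and its part in these values was not tested.

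Plasma-like cells held Vegfa at 42.2 and 13.3 CPM and Flt1 at 30.3 and 8.97 CPM, with Krt19 at 378 and 115 CPM. In both classes Vegfa, Flt1 and Krt19 were lower in the knockout library, while Kdr in mesothelial-like cells was higher in that library. Vegfb in plasma-like cells was 23.8 and 26.6 CPM, and Vegfc in mesothelial-like cells was 22.2 CPM in both libraries. The part of tumour RNA in these values was not tested, nor was the source of Krt19 in mesothelial-like cells. In T-like cells Angpt2, an angiopoietin, had 0 UMIs in 189 control cells, which allows up to 4.53 CPM, and 44 UMIs (6.51 CPM) in 1618 knockout cells.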
